A study of Sus scrofa with 21 samples.

Results

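IL6, SOCS3 and STAT3 are the signal, a feedback inhibitor and the main transcription factor of the interleukin 6 pathway. Their levels were followed in pig endometrium through the period in which the conceptus attaches to the uterus. The probes were taken by gene: each array probe whose RefSeq accession belongs to one of these pig genes was a member, whatever its level. The search found 3 probes for IL6, 1 for SOCS3 and 4 for STAT3, which is 8 of 43603 probes and 3 of 2389 named genes. All 8 were among the 30091 probes tested, which had to stand well above background in all 3 replicates of 1 group or more. No sequence is printed for them.

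Interleukin 6 is a secreted cytokine that binds the receptor IL6R, and the pair engages the shared signalling chain IL6ST, also called gp130. JAK kinases bound to that chain then phosphorylate STAT3, which enters the nucleus and switches on genes that include SOCS3, and the SOCS3 protein in turn blocks the receptor complex. In the pig uterus both the endometrium and the conceptus are known to make interleukin 6 around implantation, and STAT3 is regulated largely by phosphorylation, which an array of RNA levels does not measure.

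RNA was measured on 21 1-colour Agilent arrays, in 7 groups of 3, each array holding endometrium of Large White sows. Pregnant sows were inseminated and killed on day 13, 18 or 24 afterwards, with 3 sows per day. Endometrium was taken where a conceptus was attached (the attachment site) and between such places (the inter-site). The 3 non-pregnant controls received inactivated sperm of the same boar, were killed on day 13, and gave tissue from comparable positions. The labels name no genotype or transgene, all groups were of the same breed, and each sample is a piece of whole tissue. No later non-pregnant group was used, so the day of pregnancy and its effect cannot be told apart on days 18 and 24. The labels do not say which attachment and inter-site samples share a sow, so sites were compared unpaired. In whole tissue, fewer cells of a type and less RNA per cell cannot be told apart.

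The share of probes well above background was 62.3% to 77.1% by array, and the arrays lay on 6 slides of up to 4 each. Of the arrays, 2 resembled another group more than their own. Over the tested probes, the third inter-site array of day 24 had a correlation of 0.988 with the third non-pregnant array, and of at most 0.942 inside its own group. The first inter-site array of day 13 was closest to that day 24 array, at 0.97, against 0.943 inside its own group. Results without both are given for IL6 between sites on day 24 and from day 18 to 24 at inter-sites. They are also given for SOCS3 between sites on day 24 and for counts of pathway genes. Other differences that rest on these arrays, those of day 13 inter-sites among them, are given with the arrays in. Levels are log2 signals relative to the 75th percentile of the array, so that a probe at that percentile reads 0, and each probe is compared only with itself. The genes were chosen with results of these data known, that is, selected on their group levels and differences on these same arrays. Those values, and the calls given for these genes, are thus a description, and no p-value is printed for them.

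IL6, the cytokine itself, was high in 1 group only of the 7, the attachment sites of day 24, and low everywhere else. The brightest IL6 probe, A_72_P177826, read 2.59, 2.61 and 3.55 on the 3 arrays of day 24 attachment sites, a mean of 2.92 ± 0.55 (SD, n = 3). The day 24 inter-sites read -1.74, -1.10 and -2.85. All 3 attachment site arrays lay above all 3 inter-site arrays, and the lowest of them was 3.68 log2 units, or 12.8-fold, above the highest of the other 18 arrays.

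Before day 24 the same probe stayed low at both kinds of site. At attachment sites it read -2.63, -2.45 and -3.93 on day 13 and -2.37, -3.79 and -2.85 on day 18. At inter-sites it read -2.38, -2.90 and -3.99 on day 13 and -3.45, -3.12 and -3.96 on day 18. These 4 groups overlapped each other throughout, with means between -3.51 and -3.0. The non-pregnant arrays read -4.91, -4.74 and -2.72, so that 2 of them were the lowest of all 21 and the third lay within the range of the pregnant groups. The probe was well above background on 20 of 21 arrays, the exception being 1 non-pregnant array.

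In the units of the scanner, the 3 attachment site arrays of day 24 had processed signals of 2720, 2560 and 5850, and the other 18 arrays had signals from 12.8 to 257. Ordered by mean, the groups ran from day 24 attachment sites through day 24 inter-sites (-1.90 ± 0.89), both attachment site groups of days 13 and 18 (-3.0 ± 0.81 and -3.0 ± 0.72), day 13 inter-sites (-3.09 ± 0.82) and day 18 inter-sites (-3.51 ± 0.42) to the non-pregnant group (-4.12 ± 1.22), each with n = 3. Apart from the top group, every neighbour in this order overlapped the next.

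**Figure D1:**
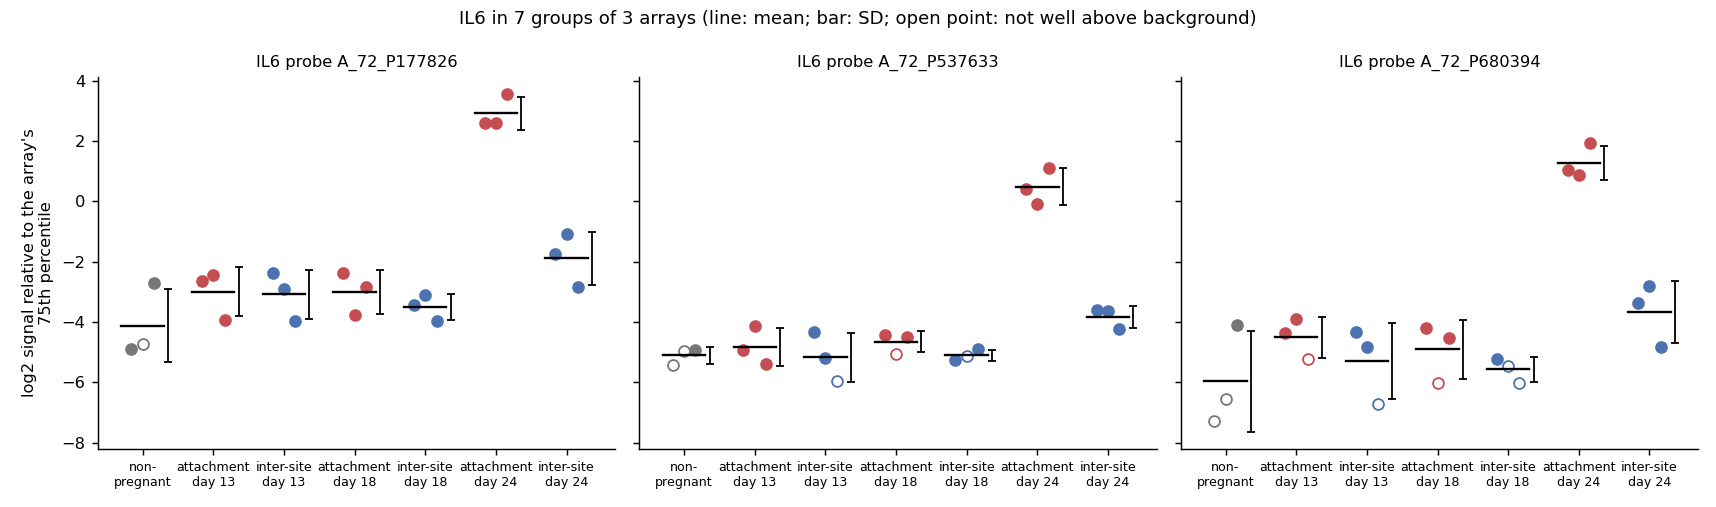
Signal of the 3 IL6 probes on each of 21 arrays, as log2 relative to the array's 75th percentile, by group; each point is 1 array, the line is the group mean, the bar is the SD over 3 arrays, and open points were not well above background. In each panel the 3 attachment site arrays of day 24 stand alone at the top, 3.68, 3.51 and 3.67 log2 units above the highest of the other 18 arrays.

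The second IL6 probe, A_72_P537633, gave the same picture at a dimmer signal. On day 24 it read 0.42, -0.10 and 1.11 at attachment sites and -3.61, -3.63 and -4.25 at inter-sites. At attachment sites it had read -4.95, -4.14 and -5.41 on day 13 and -4.42, -5.06 and -4.49 on day 18. The day 24 attachment sites were again alone at the top. Here the day 24 inter-sites (-3.83 ± 0.36, SD, n = 3) lay wholly above the next group by mean, the day 18 attachment sites (-4.66 ± 0.35). They overlapped the day 13 attachment sites, where replicate 2 read -4.14, above the lowest day 24 inter-site at -4.25. The inter-sites of day 13 read -4.35, -5.20 and -5.97, those of day 18 read -5.26, -5.14 and -4.91, and the non-pregnant arrays read -5.42, -4.97 and -4.92. Those groups overlapped, and 5 of the 21 arrays were not well above background for this probe, so the low values are near the limit of what the array resolves.

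The third IL6 probe, A_72_P680394, read 1.04, 0.86 and 1.92 at day 24 attachment sites, against -3.37, -2.81 and -4.82 at inter-sites of that day. Its earlier attachment site values were -4.36, -3.91 and -5.24 on day 13 and -4.19, -6.01 and -4.52 on day 18. Again the top group did not overlap any other. Its inter-sites read -4.34, -4.83 and -6.71 on day 13 and -5.23, -5.46 and -6.04 on day 18, and the non-pregnant arrays read -7.29, -6.54 and -4.09. This probe was well above background on 14 of 21 arrays, including all 6 of day 24 but only 1 of the 3 non-pregnant arrays. The 3 probes followed each other closely: over the 18 arrays other than day 24 attachment sites, Pearson's r between them was 0.80, 0.81 and 0.96. The points of that description share arrays and the spread of near-background signal.

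Between the sites on day 24, the IL6 probes differed by 4.81 (SE 0.62), 4.31 (SE 0.40) and 4.94 (SE 0.77) on the log2 scale, in the order in which the probes were described. As folds these were 28.1, 19.8 and 30.7, higher at attachment sites. All 3 probes passed an adjusted p under 0.05 in limma and none of their groups overlapped. Over all probes tested, 0.279% were called in this comparison and 6.31% were higher with no overlap. As the genes were chosen with such results in view, nothing is read from that contrast of shares. The calls rest on the spread pooled over all 7 groups: with only the 2 groups compared in the fit, 0 of the 3 IL6 probes and 0 of all 30091 probes were called. Probe A_72_P680394 also lost its call with slide as a fixed block, without both arrays that resembled other groups, and without replicate 2 or 3 of the attachment sites or replicate 3 of the inter-sites, while the other 2 IL6 probes were called in each of those fits.

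Leaving out both arrays that resembled other groups gave site differences of 4.34, 4.10 and 4.36 for IL6. Within a slide, a single attachment site array could be set against a single inter-site array of day 24 on 2 slides: the IL6 differences were 6.40, 5.36 and 6.74 on slide 2 and 3.70, 3.53 and 3.67 on slide 4. The slide 2 pair holds replicate 3 of the day 24 inter-sites, one of those 2 arrays. With a normexp background correction of the median spot signal (offset 50), the site differences were 3.96, 2.93 and 3.33, or 15.6-, 7.62- and 10.1-fold.

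From day 18 to day 24 at attachment sites, IL6 was higher by 5.92 (SE 0.62), 5.13 (SE 0.40) and 6.18 (SE 0.77) log2 units, which is 60.5-, 35.1- and 72.4-fold. All 3 probes were called with no overlap, in a comparison in which 5.64% of probes were called and 15.3% were higher with no overlap. They were called in every alternative that kept them in the fit, with only the 2 groups fitted and with any 1 array left out included. As the probes were chosen with such results known, these calls are a description, and nothing is read from their staying. Ordered by the size of the rise, the probes ranked 27, 57 and 21 of 30091. The folds lean on dim day 18 values: probes A_72_P537633 and A_72_P680394 were well above background on 2 of the 3 day 18 arrays, and the normexp correction gave 22.8-, 7.73- and 11.2-fold.

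At inter-sites the step from day 18 to day 24 was smaller, at 1.61 (SE 0.62), 1.27 (SE 0.40) and 1.91 (SE 0.77) log2 units, or 3.06-, 2.42- and 3.75-fold. All 3 day 24 inter-site arrays lay above all 3 of day 18 for each IL6 probe, and 11.5% of all probes tested were higher with no overlap in this comparison. None of the 3 was called, where 0.143% of all probes were. Without both arrays that resembled other groups the differences were 2.09, 1.48 and 2.48, and with the normexp correction they were 0.87, 0.24 and 0.43.

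In the other 6 comparisons no IL6 probe was called and none separated its groups. From day 13 to day 18 the share called over all probes was 1.79% at attachment sites and 0.00665% at inter-sites, and between sites it was 0% on day 13 and on day 18. On day 13, attachment sites differed from the non-pregnant group by 1.12 (SE 0.62), 0.27 (SE 0.40) and 1.47 (SE 0.77), where 1.79% of all probes were called. Inter-sites differed from that group by 1.03, -0.07 and 0.68, where 0.449% were called. In both comparisons the spread among the 3 non-pregnant arrays was as wide as the difference for probes A_72_P177826 and A_72_P680394.

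SOCS3, which STAT3 induces and which then restrains the receptor complex, was also highest at day 24 attachment sites, but by far less than IL6. Its probe, A_72_P185956, read -1.83, -2.44 and -2.43 there and -3.40, -2.98 and -3.72 at the inter-sites of day 24. On day 18 it read -2.80, -4.68 and -4.95 at attachment sites and -4.40, -3.93 and -4.93 at inter-sites. The day 24 attachment sites did not overlap any other group, but the gap to the next array was only 0.36 log2 units, because replicate 1 of the day 18 attachment sites was high.

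On day 13 SOCS3 read -4.93, -5.18 and -5.18 at attachment sites and -5.41, -4.85 and -4.65 at inter-sites, and the non-pregnant arrays read -4.63, -4.37 and -4.38. The day 13 groups were thus the lowest of the 7, and all 6 of their arrays lay below all 3 non-pregnant arrays, with mean differences of -0.64 (SE 0.43) at attachment sites and -0.51 (SE 0.43) at inter-sites. Neither difference was called, and 16.7% and 11.9% of all probes were lower with no overlap in the same 2 comparisons. Of the 21 arrays, 2 were not well above background for SOCS3, both of day 13. By mean, the order was day 24 attachment sites (-2.23 ± 0.35), day 24 inter-sites (-3.37 ± 0.37), day 18 attachment sites (-4.14 ± 1.17), day 18 inter-sites (-4.42 ± 0.50), non-pregnant (-4.46 ± 0.15), day 13 inter-sites (-4.97 ± 0.39) and day 13 attachment sites (-5.10 ± 0.15), each with n = 3. The non-pregnant group and the group below it did not overlap, nor did the top group and the one below it, and the other neighbours overlapped.

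**Figure D2:**
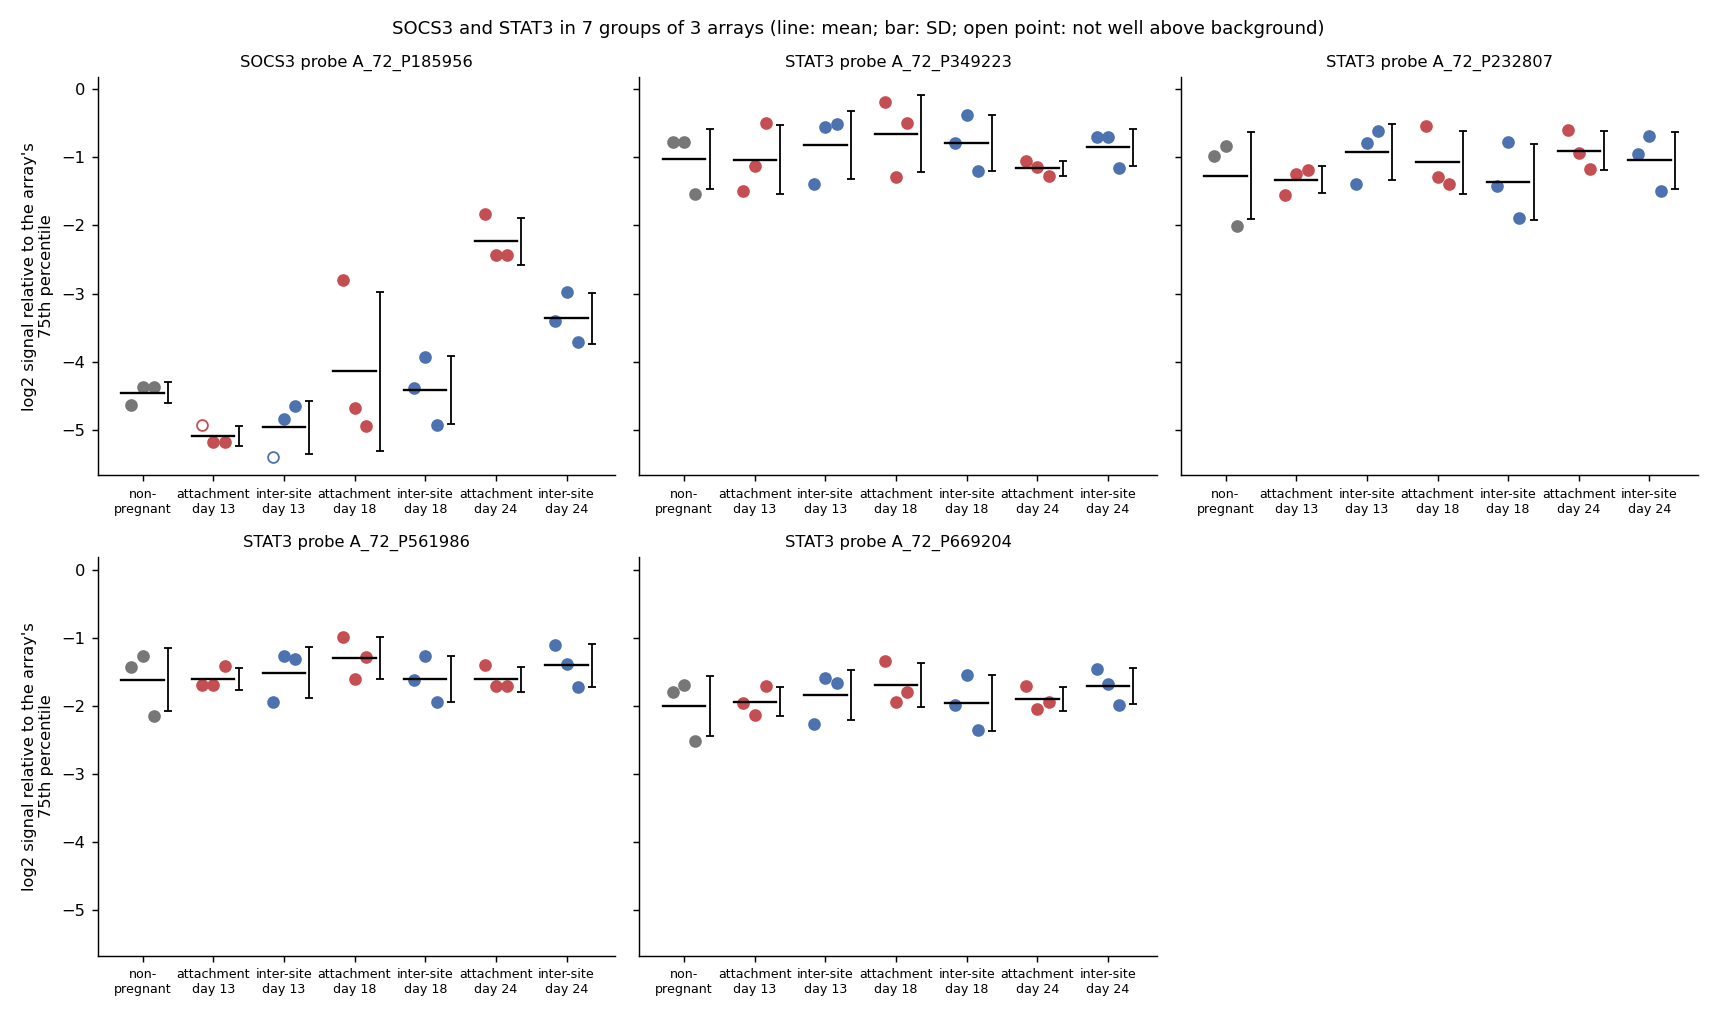
Signal of the SOCS3 probe and the 4 STAT3 probes on each of 21 arrays, as log2 relative to the array's 75th percentile, by group; points, lines, bars and open points are as in the plot of IL6. SOCS3 is highest at both sites on day 24 and varied most on day 18 (SD 1.17 at attachment sites), while for no STAT3 probe did the group means span more than 0.51.

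Between sites on day 24, SOCS3 was 1.13 (SE 0.43) log2 units higher at attachment sites, which is 2.19-fold. The arrays of the sites did not overlap, and 6.31% of all probes tested were higher with no overlap in this comparison. The SOCS3 probe was not called, where 0.279% of all probes were. Without both arrays that resembled other groups the difference was 0.96, and within slides it was 1.29 on slide 2 and 0.54 on slide 4. From day 18 to day 24 SOCS3 was higher by 1.91 (SE 0.43), or 3.76-fold, at attachment sites and was called, as were 5.64% of all probes. That call was lost with the normexp correction, with slide as a fixed block, with only the 2 groups fitted, and without replicate 2 or 3 of day 18 or replicate 2 or 3 of day 24. At inter-sites SOCS3 was higher by 1.05 (SE 0.43), or 2.08-fold, with no overlap and no call, and by 0.24 with the normexp correction. There 11.5% of all probes were higher with no overlap and 0.143% were called.

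The IL6 difference between sites was itself larger on day 24 than on day 18, by 4.31 (SE 0.87), 3.86 (SE 0.56) and 4.27 (SE 1.10) log2 units for the 3 probes, of which A_72_P537633 was called, in a contrast where 0.00997% of all probes were. For SOCS3 that change was 0.86 (SE 0.60), without a call.

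IL6 and SOCS3 both peaked in the same group, with the day 24 inter-sites next by mean for both, and were loosely related outside the top group. Over the 18 arrays outside the day 24 attachment sites, Pearson's r between A_72_P177826 and SOCS3 was 0.45 and Spearman's rho was 0.24. The array with the highest SOCS3 outside that group, replicate 1 of the day 18 attachment sites at -2.80, had an IL6 value of -2.37, the highest of its group. The highest IL6 outside it, -1.10 in replicate 2 of the day 24 inter-sites, went with the highest SOCS3 of its own group, -2.98. These are descriptions over arrays that share slides and sows.

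STAT3, the transcription factor that carries the signal to the nucleus, was well above background on all 21 arrays with each of its 4 probes and hardly varied between groups. Probe A_72_P349223 read -1.06, -1.14 and -1.27 at day 24 attachment sites, -0.70, -0.70 and -1.16 at inter-sites of that day, and -0.18, -1.28 and -0.50 at day 18 attachment sites. These ranges overlapped, as did those of all 7 groups in every comparison made. The group means of the 4 probes spanned 0.51, 0.46, 0.32 and 0.31 log2 units, about the SD among arrays of a group (0.43, 0.45, 0.32 and 0.33).

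No STAT3 probe was called in any of the 9 comparisons, and in none did the groups separate. Between sites on day 24 the 4 probes differed by -0.30 (SE 0.34), 0.14 (SE 0.35), -0.20 (SE 0.27) and -0.19 (SE 0.27). From day 18 to day 24 at attachment sites they differed by -0.51, 0.17, -0.32 and -0.20, with the same SEs. The probes did not share a sign, and alternative processing moved 3 of the 4 across 0 between sites. The interval of 1 SE around these values, as a fold, ran from 0.557 to 1.44 over the 4 probes for the step between days, so a change of STAT3 of the size seen for IL6 lay far outside it, while smaller changes could not be resolved. The STAT3 probes agreed among themselves on which arrays were higher: Pearson's r between pairs ran from 0.67 to 0.97 over 21 arrays.

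**Figure D3:**
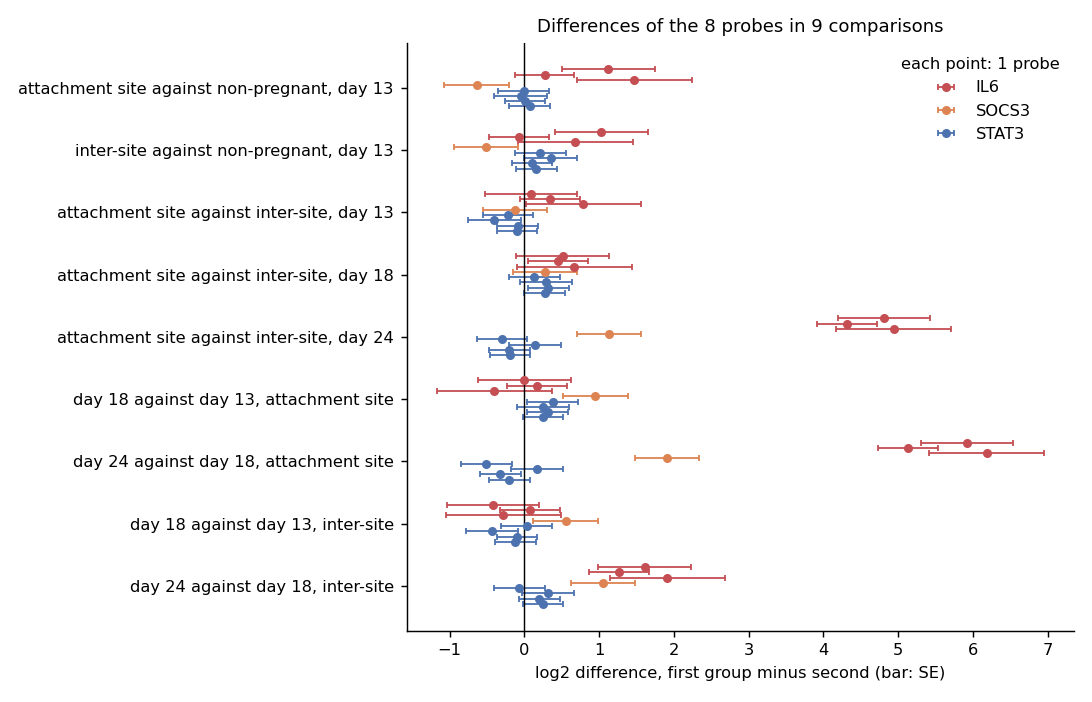
Log2 differences of the 8 probes in the 9 comparisons, first group minus second, with bars of 1 SE from the fit over 21 arrays. The 3 IL6 probes lie between 4.31 and 6.18 in the comparison of sites on day 24 and in the step from day 18 to 24 at attachment sites, SOCS3 lies at 1.13 and 1.91 there, and the STAT3 probes lie between -0.51 and 0.17.

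Tissue samples taken where a conceptus is attached can also hold conceptus tissue, and some of its markers were highest in the same group as IL6. Of 7 conceptus and trophoblast markers, 3 (PPAG3, PAG6 and CYP19A3) lay above all other arrays at the day 24 attachment sites and 4 (IFNG, IL1B2, CYP19A1 and HAND1) did not. IFNG, an interferon gene that the pig conceptus expresses, read -3.15 to -1.83 there and up to 2.26 on another array. The sum of the signal of the 7, in multiples of the 75th percentile, was 86.6, 262 and 305 on the 3 day 24 attachment site arrays. Elsewhere it ran from 3.98 to 12.1, except on replicate 2 of the day 18 attachment sites (58.7) and replicate 2 of the day 24 inter-sites (63). On those 5 arrays the sum was mostly the signal of PAG6, which made up 90.6%, 93.1% and 94.5% of it at day 24 attachment sites, 76% on the day 18 array and 87.2% on the inter-site array. All 7 markers were well above background on each day 24 attachment site array. IL1B2, CYP19A1 and HAND1 were so on all 21 arrays, the non-pregnant ones included, so their presence does not mark conceptus tissue here. The pig aromatase gene CYP19A3 was well above background on 3 of the 21 arrays, all of them day 24 attachment sites.

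Those 2 arrays differed in IL6. Replicate 2 of the day 18 attachment sites read 5.48 for PAG6 and -0.45 for PPAG3, genes of pregnancy-associated glycoproteins of the trophoblast, the highest of its group for both, and had an IL6 value of -3.79, the lowest of that group. Among day 24 inter-sites, the array with the high marker sum, replicate 2, had the highest IL6, -1.10. Smooth muscle markers, which the muscle wall of the uterus would bring, also differed on these arrays. Their summed signal (3 markers) was 1530 on that day 18 array, against 80.6 and 331 in the rest of its group, and 631 on that inter-site array, against 86.5 and 41.6. It was 1300 and 1200 on the 2 non-pregnant arrays with the lowest IL6, -4.91 and -4.74, against 34.6 on the third, at -2.72. At day 24 attachment sites it was 65.7 to 252. Among day 13 attachment sites it was 615 on replicate 2, which had the highest IL6 of that group, -2.45, against 36.1 and 50.6. Among day 18 inter-sites it was 589 on replicate 3, which had the lowest IL6 of that group, -3.96, against 61.1 and 145. The part of muscle in the IL6 level was not tested. Between sites on day 24, CYP19A3 was higher at attachment sites. It entered the tests only through that group, so nothing is read from its call. PPAG3 (adjusted p = 0.178 in limma over all probes) and PAG6 (adjusted p = 0.325) did not pass there. From day 18 to day 24 at attachment sites, 2 of the 7 markers tested, CYP19A3 among the 7, were called higher and 0 lower. In that comparison 5.64% of all probes were called. Whether conceptus tissue contributes to the IL6 signal was not tested, and IL6 of the endometrium and of the conceptus cannot be told apart here.

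**Figure D4:**
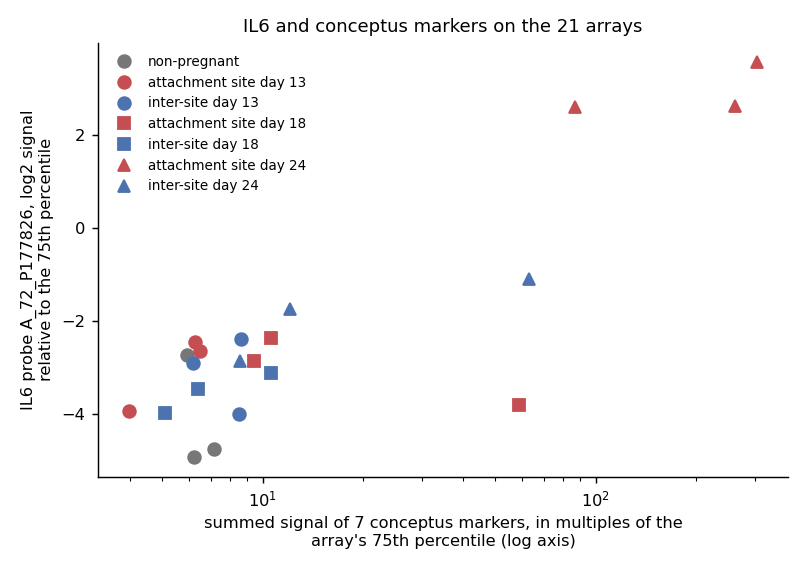
IL6 probe A_72_P177826 (log2 relative to the 75th percentile) against the summed signal of 7 conceptus markers (multiples of the 75th percentile, log axis), with 1 point for each of 21 arrays. The 3 day 24 attachment site arrays sit at the top right, and the day 18 attachment site array with a sum of 58.7 has an IL6 value of -3.79.

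Sums of neutrophil and macrophage markers at the day 24 attachment sites overlapped those of some other groups but not of all. Sums of T and NK cell markers were low on day 24 at both sites. The 3 neutrophil markers were S100A8, S100A9 and S100A12, while CXCR2, CSF3R and MPO of that list had no named probe. Their summed signal was 3.15 to 7.42 at day 24 attachment sites, 1.46 to 10.9 at day 24 inter-sites and up to 39.2 on day 13. It was lower, with no overlap, at day 18 attachment sites (0.35 to 0.836), day 18 inter-sites (0.199 to 0.651) and in the non-pregnant group (0.55 to 1.14). From day 18 to 24 at attachment sites, 1 of the 3 was called higher and 0 lower, where 5.64% of all probes were called. Of 5 macrophage markers, 1 was called higher and 0 lower from day 18 to 24 at attachment sites, at a median difference of -0.70. Their summed signal was 27.4 to 36.4 at day 24 attachment sites and 13.5 to 23.8 at those of day 13, with no overlap. The summed signal was 12.6 to 31 at day 24 inter-sites and 30.1 to 71.2 at day 18 attachment sites. That of 7 T and NK cell markers was 2.16 to 2.54 at day 24 attachment sites, 2.54 to 3.39 at the inter-sites of that day and 4.93 to 9.31 at day 18 attachment sites, and no array of an earlier day was below 4.34. The sum of 3 endothelial markers was 27.6 to 38.2 at day 24 attachment sites and 16.5 to 22.1 at the inter-sites of that day. On day 18 it was 13.5 to 36.5 at attachment sites and 16.3 to 28.2 at inter-sites, which overlap the day 24 attachment sites. The part of any of these in the IL6 result was not tested. All 5 epithelial markers and the stromal fibroblast marker DCN were well above background on all 21 arrays, but these are general epithelial and stromal genes that do not separate endometrium from conceptus tissue.

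The other genes of the pathway were read from a list of 61 genes in 7 roles. Of these, 35 were on the array under their names and all 35 were tested. The list too was chosen with earlier results of these data known, so its calls and p-values are a description. Ligands, receptors and inhibitors were thinly covered, with 2 of 7, 2 of 6 and 1 of 7 genes. Between sites on day 24, 0 of the 35 were called, where 0.279% of all probes were, at a median difference of 0.12 against -0.05 over all probes tested, and 3 had an unadjusted p under 0.05. From day 18 to day 24 at attachment sites, 3 were called, 2 higher and 1 lower, where 5.64% of all probes were, at a median of 0.09 against 0 over all probes. With only the 2 groups fitted, none of those 3 was called.

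LIF, a sister cytokine that signals through IL6ST as well, read between -2.64 and -1.81 at day 24 attachment sites and between -4.42 and -3.47 at those of day 18. The ranges did not overlap, and 15.3% of all probes tested were higher with no overlap in this comparison. The LIF difference of 1.72 (SE 0.58) did not pass (adjusted p = 0.0889 in limma). It was called without both arrays that resembled other groups. The receptor gene IL6R differed by 0.50 (SE 0.55) between sites on day 24 and by 0.79 (SE 0.55) from day 18 to 24. For IL6ST the corresponding values were 0.63 (SE 0.80) and 0.39 (SE 0.80). None of these receptor differences exceeded its error by much, and none was called.

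The kinases JAK1, JAK2 and TYK2, which phosphorylate STAT3, differed by no more than 0.41 log2 units in either comparison of day 24, and none was called. SOCS2, the other SOCS gene measured, differed by -0.26 (SE 0.32) between sites on day 24 and by -0.37 (SE 0.32) from day 18, where SOCS3 differed by 1.13 and 1.91.

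Among 8 target genes of STAT3, TIMP1, an inhibitor of matrix metalloproteinases, rose from day 18 to day 24 at attachment sites by 1.14 (SE 0.29, adjusted p = 0.029 in limma), and its other 2 probes gave 1.54 and 1.51. The transcription factor IRF1, better known as an interferon target, fell by 2.35 (SE 0.54, adjusted p = 0.0197), after a rise of 2.26 (SE 0.54, adjusted p = 0.0428) from day 13 to 18. VEGFA, a growth factor for vessels, differed by 1.62 (SE 0.53, adjusted p = 0.0825) and CEBPB, a transcription factor of the acute phase, by 1.31 (SE 0.46, adjusted p = 0.10), which did not pass. The TIMP1 call was lost with the normexp correction (0.89, adjusted p = 0.325), with slide as a fixed block, and without replicate 3 of day 18 (0.71, adjusted p = 0.0817), replicate 2 of day 24 (adjusted p = 0.118) or replicate 3 of day 24 (adjusted p = 0.107). The fall of IRF1 was lost with slide as a fixed block (adjusted p = 0.0715) and without replicate 1 or 3 of day 18 (adjusted p = 0.0688 and 0.0627) or replicate 2 or 3 of day 24 (adjusted p = 0.0843 and 0.076), and its earlier rise without any 1 of the day 13 arrays (adjusted p = 0.0623, 0.154 and 0.113) or replicate 1 of day 18 (adjusted p = 0.214).

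Of the 7 acute phase genes, which interleukin 6 is known to induce in liver, SERPINA1, the gene of alpha-1-antitrypsin, came closest to the IL6 pattern. It read 0.66, 4.02 and 3.98 at day 24 attachment sites, -2.33, -2.76 and -0.99 at inter-sites, and -4.26, -0.50 and -4.91 at day 18 attachment sites. It rose from day 18 to 24 by 6.11 (SE 1.21, adjusted p = 0.0106 in limma), and its other probe gave 5.94. The call was lost without replicate 2 or 3 of day 24 (adjusted p = 0.0654 and 0.0627). The difference between sites on day 24, 4.91 (SE 1.21), did not pass (adjusted p = 0.12). Replicate 2 of day 18, at -0.50, is the array whose conceptus markers were high, and the part of conceptus tissue in the SERPINA1 level was not tested.

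SAA3, CRP, HP and the other 3 acute phase genes were not called on day 24. SAA3, a serum amyloid gene, was the 1 member of the pathway list that rose with pregnancy on day 13 at attachment sites (4.07, SE 0.94, adjusted p = 0.0397 in limma), and MYC, a target gene, fell there by 2.28 (SE 0.54, adjusted p = 0.0427). The MYC call was lost without any 1 of the 6 arrays compared, with adjusted p from 0.0788 to 0.137. The SAA3 call was lost without replicate 1 or 2 of the non-pregnant group (adjusted p = 0.156 and 0.143) or replicate 1, 2 or 3 of day 13 (adjusted p = 0.136, 0.107 and 0.0924). No gene of the list was called in the 6 remaining comparisons, in which 0 to 6 had an unadjusted p under 0.05 in limma.

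IL1B and TNF, cytokines that induce IL6 in many cells, differed little between sites on day 24. IL1A, another of them, was higher at attachment sites without a call. Their part in the IL6 level was not tested. IL1B read -1.96 ± 0.51 (SD, n = 3) at day 24 attachment sites and -2.08 ± 0.76 at inter-sites, a difference of 0.12 (SE 0.64). TNF read -0.82 ± 0.06 and -0.66 ± 0.22, a difference of -0.16 (SE 0.23). The NF-kappaB genes NFKB1, RELA and NFKBIA differed between sites by -0.02, -0.33 and -0.47. IL1A differed by 1.52 (SE 0.59) and did not pass (adjusted p = 0.49), and none of the 8 inducers, of which the conceptus interleukin gene IL1B2 is also among the conceptus markers, was called in any comparison.

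**Figure D5:**
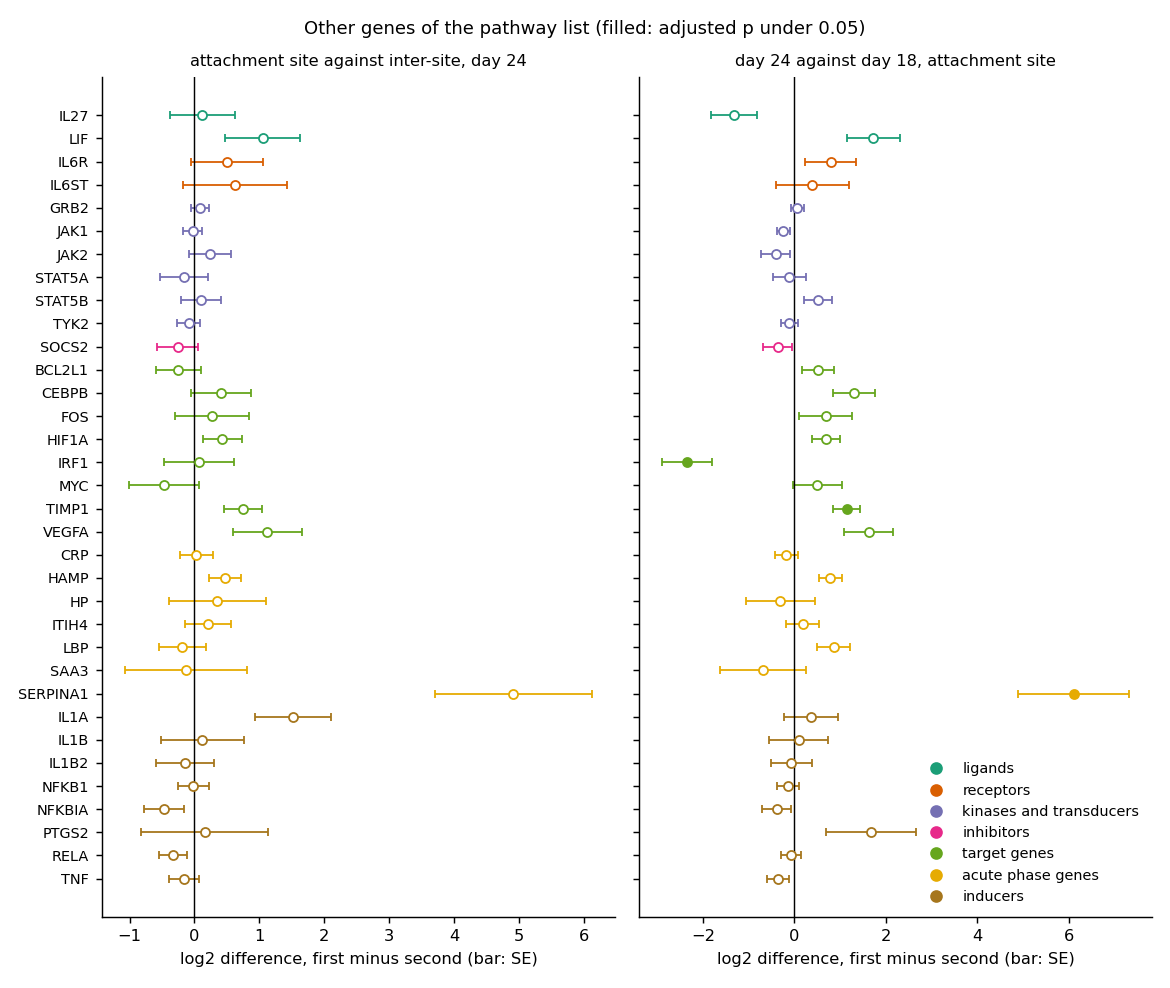
Log2 differences with bars of 1 SE for other pathway genes on the array, coloured by role, between sites on day 24 (left) and from day 18 to day 24 at attachment sites (right). Filled points passed an adjusted p under 0.05: 0 genes on the left, and SERPINA1, TIMP1 and IRF1 on the right.

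Likeness to each member was measured as Pearson's r over the 21 arrays, with 1 probe for each of 2016 other named genes, and is a description only. The 5 genes most like IL6 were HMOX1 (0.93), GRN (0.92), SCGN (0.90), ATP6V1A (0.90) and PARD6B (0.90). Over the 18 arrays outside the day 24 attachment sites these values were 0.72, 0.49, 0.53, 0.69 and 0.59, so much of the likeness to IL6 rested on that 1 group. HMOX1 read from 5.99 to 6.83 there and from 1.32 to 4.67 on the other 18 arrays.

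The genes most like SOCS3 were SERPINA3-2 (0.91), DNAJC3 (0.90), TIMP1 (0.90), RPN2 (0.89) and CD46 (0.89), and without the day 24 attachment sites they stayed between 0.80 and 0.83. None of the 5 was among those of IL6. For STAT3, probe A_72_P349223, the closest included XIAP (0.76), TICAM2 (0.64), BCLAF1 (0.62) and PITPNC1 (0.58). Likeness to STAT3 was thus looser, on a gene whose groups hardly differed.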

How the data were processed

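The deposited scanner files hold spot intensity, background-subtracted and detrended within each array by Agilent Feature Extraction 10.7.3.1, per the file headers (10.7 per the submitters' processing notes). The authors' deposited log2 table served as an alternative only: 19 of its 21 columns matched their own scanner file best, and the columns of day 24 inter-site replicates 2 and 3 followed each other's files. Control and outlier spots were left out, and no spot was saturated. The log2 processed intensity minus each array's 75th percentile was fitted with 7 group means in limma 3.58.1 (R 4.3.3), with Benjamini-Hochberg adjustment over 30091 probes within each of 9 comparisons; the script was tested on simulated data. Probes were named through RefSeq accessions: 5461 of 5779 matched a symbol. For other genes the probe with the highest mean stood for the gene. Members and lists were chosen with earlier results of these data known. The named pathway genes are those called, plus ligands, receptors, kinases, SOCS genes and inducers of the list. Some results by these rules are not reported here. Replicates are separate samples by label, but which samples share a sow is not given, so p-values measure the spread between these samples. The number of arrays limits the precision. Alternatives covered normalization, background, filter, table, slide, replicate block, probes, groups fitted and arrays left out.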

Additional observations from a re-analysis of the deposited data

Results flagged for a closer look

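The difference between attachment site and inter-site changed from day 18 to day 24 for 1 IL6 probe, A_72_P537633, by 3.86 (SE 0.56) on the log2 scale, as tested by the interaction of site and day in limma over all 30091 probes. In that test 0.00997% of all probes were called. The probe was one of the genes' own, chosen with results known, so its passing is a description. The other IL6 probes changed by 4.31 (SE 0.87) and 4.27 (SE 1.10), with larger errors, and did not pass. SOCS3 changed by 0.86 (SE 0.60) and the STAT3 probes by -0.52 to -0.15. Of the 86 such changes examined over members and pathway genes and both steps in time, this was the 1 that passed.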

How the results depend on the processing

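Over the alternatives, 1275 of 1356 recomputed differences of the 8 probes moved by less than the SD between replicates, 81 moved by more, and 0 called values changed sign. With normexp background correction, which also moved the median of all probes to 0.25 between sites on day 24 and 0.258 from day 18 to 24 at attachment sites, the 3 IL6 probes gave 3.96, 2.93 and 3.33 between sites and 4.51, 2.95 and 3.49 between days, and STAT3 probe A_72_P349223 gave -0.06 between sites. Within slide 2 IL6 gave 6.40, 5.36 and 6.74 between sites and 6.87, 5.89 and 7.18 between days, and within slide 4 it gave 3.70, 3.53 and 3.67 between sites, with 0.54 for SOCS3. The mean over the IL6 probes gave 5.74 between days, against 5.13 for A_72_P537633. Leaving out 1 array at a time gave ranges of 4.34 to 5.21, 3.99 to 4.60 and 4.36 to 5.37 for IL6 between sites. With only the 2 groups fitted no IL6 probe was called between sites on day 24.

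Counts of called pathway genes were small and moved. For day 13 attachment sites against the non-pregnant group the count of 2 became 1 with quantile normalization and with the authors' deposited table, 0 with normexp, with no filter and with slide as a fixed block, 4 without both arrays that resembled other groups, and 0 to 2 with 1 array left out. For day 13 inter-sites 0 became 1 without both arrays and 0 to 1 with 1 left out. Between sites on day 24, 0 became 1 with normexp (SERPINA1) and 0 to 1 with 1 array left out. For day 18 against 13 at attachment sites 2 became 1 with normexp, 0 with no filter, with slide as a fixed block and with only the 2 groups fitted, and 0 to 3 with 1 left out. For day 24 against 18 there, 3 became 2 with normexp (TIMP1 was lost), 4 without both arrays (LIF was added), 1 with slide as a fixed block, 0 with only the 2 groups fitted, and 0 to 4 with 1 left out. The other causes were not tested; fitting 2 groups alone leaves fewer arrays. Slide as a random block had a correlation of -0.056.

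With the replicate number as a block, 4 pathway genes were called for day 24 against 18 at attachment sites (VEGFA was added) and no other count changed. Whether the numbers pair the samples cannot be told. Deviations of same-numbered arrays correlated between -0.28 and 0.49, and in 0 of 9 comparisons were all pairs over 0.1. Only sites of the same day can share sows. There the correlations were -0.11, -0.01 and 0.23 on day 13, 0.23, 0.10 and 0.49 on day 18, and 0.19, 0.08 and 0.08 on day 24. A filter on all 21 arrays gave no value for IL6 and SOCS3, and no count within slides was run. Dim signal limits IL6 outside day 24, where probes were near background.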
